A study of Rattus norvegicus with 42 samples.

Results

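The fatty acid desaturases Fads1, Fads2 and Fads3 and the elongases of polyunsaturated fatty acids (PUFA) Elovl2 and Elovl5 were followed through GR binding, elongating RNA polymerase and RNA in livers of adrenalectomised rats. These 5 genes were taken by name from the table of elongating polymerase, and they are 5 of the 22929 genes in the RNA table. They hold 10 of 60999 coding regions in the polymerase table, namely 1 gene region and 1 transcript region per gene. GR regions were assigned to a member when their centre lay within 50 kb of its transcription start site (TSS), which gave 5 of 3981 regions. The family was chosen on the polymerase values, in which Fads1, Fads2 and Elovl5 stood below vehicle after corticosterone. Those values are therefore given as a description without a test, whereas GR binding and RNA were tested. The GR regions are peaks that the authors called in these same libraries, which limits the GR tests.

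All rats were male Sprague Dawley rats whose adrenal glands had been removed, which ends their own release of corticosterone (CORT). All were given dexamethasone after surgery and CORT in the drinking water, which was replaced by saline for washout before the infusion. CORT was then infused as hourly pulses (PULS) or at a dose-matched constant rate (CONS). For chromatin immunoprecipitation with sequencing (ChIP-Seq), livers were taken at the third pulse peak at 140 min (PEAK_140), at the following nadir at 180 min (NADIR_180), and at the same times of the constant infusion (CONS_140, CONS_180). Each of these groups had 2 libraries per antibody, and each library pooled 6 rats. The vehicle group (VEH) had 2 libraries, from pulsatile vehicle infusion, of which 1 was taken at 140 min and the other at 180 min, so that all 4 CORT groups share the same 2 controls. RNA was measured at 180 min in 4 groups of 3 libraries, pulsatile and constant CORT and pulsatile and constant vehicle. The RNA samples labelled pulsatile were thus taken at the nadir.

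Mammals make long-chain PUFA such as arachidonic acid and docosahexaenoic acid in the liver from dietary linoleic and alpha-linolenic acid, by alternating desaturation and elongation on the endoplasmic reticulum. Fads2, the delta-6 desaturase, begins the route and is held to limit its rate, Elovl5 adds a pair of carbons to its products, Fads1, the delta-5 desaturase, introduces the next double bond, and Elovl2 extends the longest chains. Fads3 resembles both desaturases and acts on sphingoid bases. The transcription factor SREBP-1, encoded by Srebf1, and the nuclear receptor PPARalpha, encoded by Ppara, are known activators of Fads1, Fads2 and Elovl5. GR, the receptor of CORT, is a nuclear receptor that binds DNA once it holds its ligand.

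Promoter sequences of Fads1, Fads2 and Elovl5, the 3 genes whose RNA fell with constant CORT, are shown because the data turn on these genes. They are the 250 bases 5′ of the annotated start in RefSeq, build GRCr8, at chr1:216252442-216252691 on the plus strand (Fads1), chr1:216172034-216172283 on the minus strand (Fads2) and chr8:87670914-87671163 on the plus strand (Elovl5). The ChIP data use build rn6, so these coordinates do not match those of the regions given later. Capitals mark CCAAT, the box bound by NF-Y, and GGGCGG, the box bound by Sp1, each on either strand.
Fads1: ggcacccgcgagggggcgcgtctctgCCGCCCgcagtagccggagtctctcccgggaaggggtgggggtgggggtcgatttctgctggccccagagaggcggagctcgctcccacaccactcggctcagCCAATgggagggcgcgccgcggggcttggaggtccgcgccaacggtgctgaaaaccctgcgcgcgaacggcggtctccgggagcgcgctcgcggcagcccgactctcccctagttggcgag
Fads2: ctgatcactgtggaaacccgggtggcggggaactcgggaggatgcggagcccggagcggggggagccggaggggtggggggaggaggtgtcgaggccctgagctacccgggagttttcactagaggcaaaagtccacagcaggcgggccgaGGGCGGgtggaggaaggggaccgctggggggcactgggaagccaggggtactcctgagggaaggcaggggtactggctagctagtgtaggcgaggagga
Elovl5: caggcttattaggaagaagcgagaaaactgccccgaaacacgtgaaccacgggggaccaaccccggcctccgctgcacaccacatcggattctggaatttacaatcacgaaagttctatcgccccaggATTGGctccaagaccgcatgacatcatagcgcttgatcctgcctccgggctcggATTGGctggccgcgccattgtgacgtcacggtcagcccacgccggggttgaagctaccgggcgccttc
All 5 members had a promoter in the RefSeq table, and all were searched on both strands. CCAAT was found 1 time in Fads1, 2 times in Elovl5, 2 times in Fads3 and 0 times in Fads2 and Elovl2, against 34% of 33469 promoters with at least 1 match. GGGCGG was found 1 time in Fads1, 1 time in Fads2, 3 times in Fads3, 7 times in Elovl2 and 0 times in Elovl5, against 30.5% of promoters. The GR half-site AGAACA (17.5% of promoters), a spaced pair of GNACA and TGTNC with 3 bases between (0.373%) and the sterol regulatory letters TCACNCCAC (0.974%) were each absent from all 5 members in this window. The GC content was 73.2% in Fads1, 68% in Fads2, 75.6% in Fads3, 86.8% in Elovl2 and 59.2% in Elovl5, against a median of 51.2% over all promoters.

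Sequencing depth was 3956379 to 7777219 reads per RNA library, 2051977 to 6715803 tags per GR library and 4938473 to 9326927 tags per pSer2 Pol2 library. The liver label was borne out by 7 hepatocyte genes, whose summed RNA was 95000 to 148000 CPM (counts scaled to a common library size), while 4 cholangiocyte genes summed to 7.7 to 14.6 CPM with 1 of them at 0 in all libraries. The GR target genes Fkbp5, Per1, Tsc22d3 and Zbtb16 summed to 419 to 572 CPM with pulsatile and 745 to 905 CPM with constant CORT, against 53.1 to 121 CPM in the 6 vehicle libraries. Marker sums of Kupffer cells (269 to 485 CPM), endothelium (241 to 339 CPM), lymphocytes (35.8 to 73.8 CPM) and erythroid cells (90.6 to 220 CPM) overlapped between CORT and vehicle within both patterns. Markers of stellate cells summed to 140 to 172 CPM with constant CORT against 195 to 208 CPM in its vehicle, and to 146 to 195 CPM with pulsatile CORT against 209 to 268 CPM, so these ranges did not overlap. Most of that sum was Reln, at 508 to 1538 reads per library, while the other 4 markers had at most 133 reads each. By edgeR Reln was lower with pulsatile (log2 change -0.54, SE 0.12, adjusted p = 0.0172) and constant CORT (-0.45, SE 0.12, adjusted p = 0.0241). Both changes were smaller than the 1.5-fold needed for a call, so no stellate marker was called lowered. Dcn was raised with constant CORT (log2 change 1.16, SE 0.34, edgeR adjusted p = 0.0359), and the part of stellate cells in the results was not tested. In whole liver, fewer cells of a type and less RNA per cell cannot be told apart.

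Polymerase that has left the promoter and transcribes the gene body is phosphorylated at serine 2 of its repeats (pSer2 Pol2). The deposited values are log2 tag counts over the coding region, here the first 10000 b of each gene, and where tags are few they are shrunk towards the average of their region, so differences that reach low values are fitted values and not bounds. The first CONS_140 library stood apart: against VEH 302 coding regions were called with both CONS_140 libraries, 5669 with the first alone and 80 with the second alone. Over Fads2 (rn6 chr1:226142524-226152524, minus strand) the VEH libraries stood at 9.16 and 8.85 and the PEAK_140 libraries at 2.38 and 2.01. At NADIR_180 they stood at 5.43 and 4.99, at CONS_140 at 5.63 and 1.74, and at CONS_180 at 1.85 and 2.22. All 8 CORT libraries were therefore below both VEH libraries, NADIR_180 lay between VEH and PEAK_140, and the CONS_140 libraries were the highest and the lowest of the 8.

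Fads1 (rn6 chr1:226234074-226244074, plus strand) was also highest in VEH and, among the CORT groups, at NADIR_180. The VEH libraries were at 8.40 and 8.08, PEAK_140 at 2.26 and 2.17, NADIR_180 at 5.15 and 3.68, CONS_140 at 4.67 and 1.93, and CONS_180 at 5.33 and 2.35. No CORT library reached the VEH level, and in both constant groups the libraries differed more from each other than the group means did. For Elovl5 (rn6 chr8:85259982-85269982, plus strand) VEH stood at 7.99 and 7.42, PEAK_140 at 7.12 and 6.95, NADIR_180 at 6.12 and 6.44, CONS_140 at 6.40 and 5.41, and CONS_180 at 7.32 and 6.83. Elovl5 polymerase was thus lower by far less than that of the desaturases, and the lowest values were at NADIR_180 and CONS_140 rather than at PEAK_140.

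**Figure D1:**
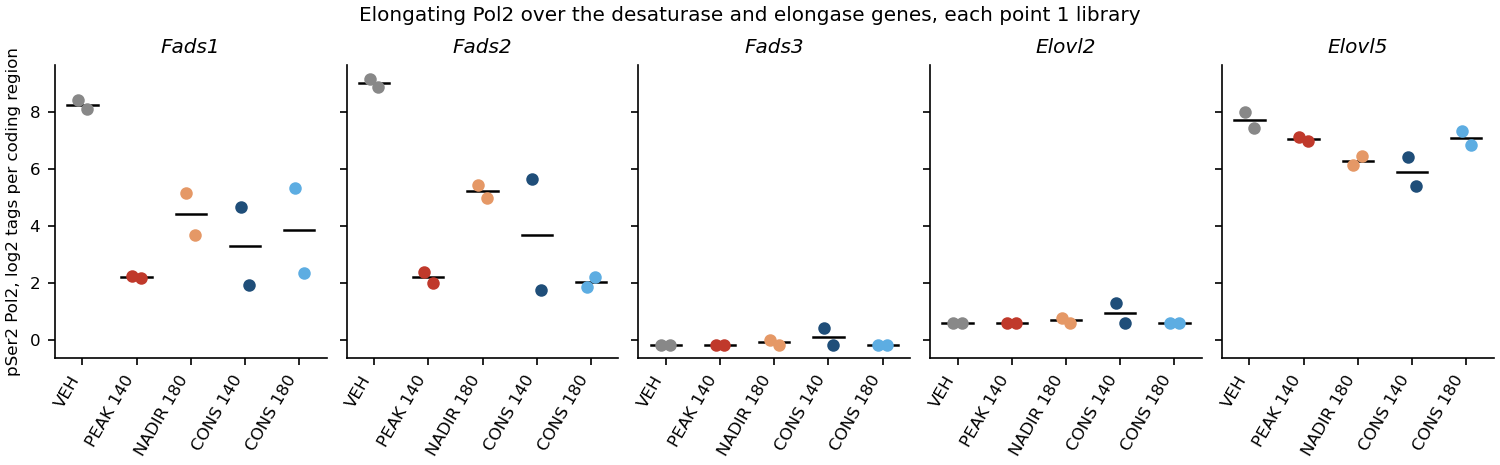
pSer2 Pol2 over the coding region of each member, in log2 tags, by ChIP group. Points are single libraries and horizontal lines are group means (n = 2). Fads1 and Fads2 stood above 8 in VEH and at about 2 at PEAK_140, Elovl5 stayed between 5.41 and 7.99, and Fads3 and Elovl2 stayed near the bottom of the scale throughout.

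Expressed as differences of log2 means from VEH, Fads2 was at -6.81 for PEAK_140, -3.79 for NADIR_180, -5.32 for CONS_140 and -6.97 for CONS_180 (SE 0.88, from the spread of all 10 libraries). Fads1 was at -6.03, -3.83, -4.94 and -4.40 in the same order (SE 0.95). Elovl5 was at -0.67, -1.43, -1.81 and -0.63 (SE 0.40). The log2 mean of PEAK_140 minus that of NADIR_180 was -3.02 for Fads2 and -2.20 for Fads1, which were higher at the nadir, and 0.76 for Elovl5, which was lower. Across all 38315 coding regions tested with limma, 0.989% passed the threshold of an adjusted p below 0.05 and a change above 1.5-fold for PEAK_140, 0.00522% for NADIR_180, 0.788% for CONS_140 and 0.214% for CONS_180. Nothing is read from these shares about the members, since their values chose the family.

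Fads3 (rn6 chr1:226091774-226101774, plus strand) and Elovl2 (rn6 chr17:21382455-21392455, plus strand) stood near the bottom of the pSer2 Pol2 scale. Such low values do not show that a gene is not transcribed. The hepatocyte gene Hnf4a had a mean of 0.71 in VEH, while its RNA had a mean of 447.4 CPM in constant vehicle. Fads3 ranged from -0.18 to 0.41 and Elovl2 from 0.60 to 1.28 over the 10 libraries, in each case with the highest value in the first CONS_140 library. At such low values a difference between groups could not be read for either gene, and none was tested. Gene and transcript regions of a member were nearly the same rows, with a largest difference of 0.0079 for Elovl5 and 0 for the other 4 genes.

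RNA was not part of the rule that chose the members, but they were chosen with earlier results of these data known. Constant CORT lowered Fads1, Fads2 and Elovl5, whereas none of the members changed by the same test under pulsatile CORT at the nadir. In CPM, Fads2 was at 496.2, 436.6 and 440 in constant vehicle and at 148.5, 229.6 and 228.7 in constant CORT, with no overlap. The fall was 2.26-fold (log2 change -1.18, SE 0.20, adjusted p = 0.000891, edgeR quasi-likelihood test with Benjamini-Hochberg adjustment, n = 3 per group). In pulsatile CORT it stood at 255.2, 348.4 and 352 CPM against 436.7, 365.3 and 633.3 CPM in pulsatile vehicle, again without overlap. That difference (log2 change -0.59, SE 0.20, unadjusted p = 0.00935) did not pass the edgeR test after Benjamini-Hochberg adjustment (adjusted p = 0.0999), but did when no genes were filtered out for low counts (edgeR adjusted p = 0.0335).

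Fads1 was at 331.9, 318.9 and 287.9 CPM in constant vehicle and at 113.3, 139.6 and 174.5 CPM in constant CORT. The groups did not overlap and the fall was 2.20-fold (log2 change -1.13, SE 0.20, edgeR adjusted p = 0.0014). Pulsatile CORT libraries were at 252.5, 306.6 and 268.2 CPM and lay within the range of pulsatile vehicle, 289.8, 219.8 and 441 CPM (log2 change -0.20, SE 0.20, edgeR adjusted p = 0.646).

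Elovl5 was at 253.8, 241.1 and 235.5 CPM in constant vehicle and at 129, 148.8 and 165.7 CPM in constant CORT, 1.65-fold lower and without overlap (log2 change -0.72, SE 0.13, edgeR adjusted p = 0.00119). In pulsatile CORT it was at 233.9, 220.6 and 248.3 CPM against 235.3, 189.4 and 252.4 CPM in its vehicle. These groups overlapped fully and the log2 change was 0.05 (SE 0.13, edgeR adjusted p = 0.868).

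Elovl2 and Fads3 did not pass in either pattern. Elovl2 had RNA at 25.43 to 27.42 CPM in constant CORT and 27.33 to 34.08 CPM in constant vehicle, where the ranges just overlapped, and at 23.12 to 25.6 CPM in pulsatile CORT and 22.4 to 31.53 CPM in pulsatile vehicle. Its log2 changes were -0.21 (SE 0.13, edgeR adjusted p = 0.353) with constant and -0.17 (SE 0.14, adjusted p = 0.546) with pulsatile CORT. Fads3 was the rarest member at 3.05 to 8.51 CPM, from 13 to 41 reads per library. Each CORT library of both patterns was below all 3 libraries of its vehicle, with log2 changes of -0.54 (SE 0.29, edgeR adjusted p = 0.272) and -0.77 (SE 0.31, adjusted p = 0.17), which at this depth could not be separated from the spread.

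**Figure D2:**
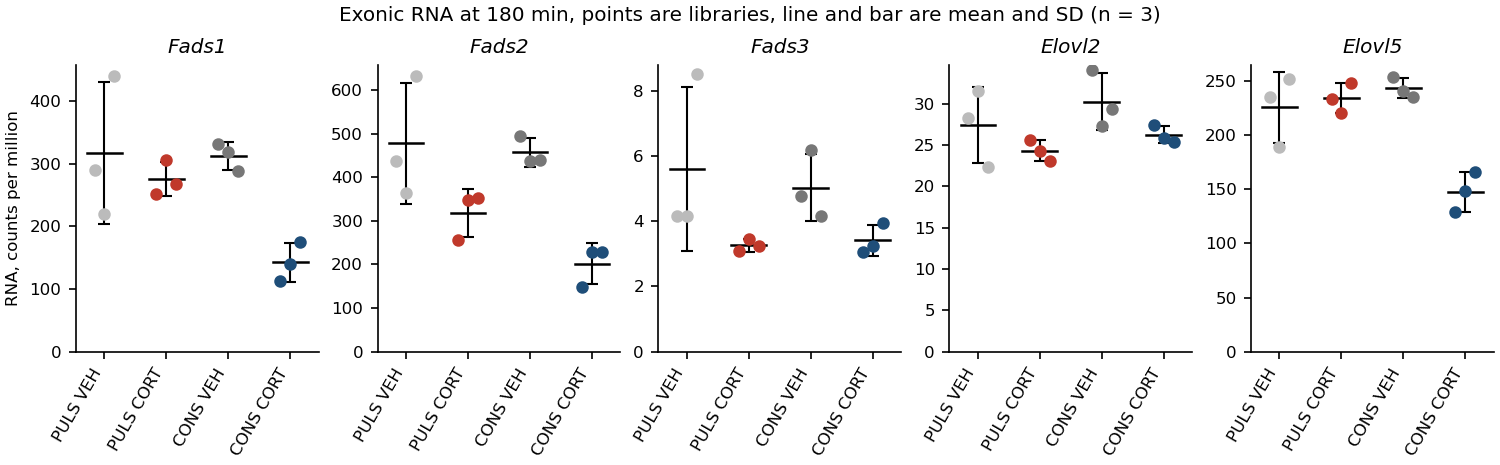
RNA of each member in CPM (vertical axes start at 0 and differ between panels) in the 4 groups at 180 min. Points are libraries and lines with bars are the mean and SD (n = 3). Constant CORT lay below the other 3 groups for Fads1, Fads2 and Elovl5, while the pulsatile CORT and vehicle points of Fads1 and Elovl5 overlapped.

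With constant CORT 3 of the 5 members were called and all 3 were lowered, against 9.2% of 14092 genes called in either direction and 4.75% lowered. With pulsatile CORT 0 of 5 members were called by edgeR, 2 (Fads2 and Fads3) had an unadjusted p below 0.05, and DESeq2 also called 0, against 4.23% of all genes called. The median log2 change of the members was -0.72 with constant and -0.20 with pulsatile CORT, where the medians over all genes were -0.0099 and -0.013. Leaving out each of the 12 libraries in turn kept all 3 constant-CORT calls, with adjusted p of at most 0.0111 for Fads1, 0.00607 for Fads2 and 0.0105 for Elovl5.

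Whether the patterns differed was tested in 2 ways. The interaction, the response to constant CORT minus the response to pulsatile CORT, was -0.93 for Fads1 (SE 0.29, unadjusted p = 0.00486, edgeR adjusted p = 0.171) and -0.77 for Elovl5 (SE 0.18, unadjusted p = 0.000535, adjusted p = 0.0887). It was -0.59 for Fads2 (SE 0.28, adjusted p = 0.406), 0.23 for Fads3 (SE 0.43, adjusted p = 0.882) and -0.04 for Elovl2 (SE 0.19, adjusted p = 0.961). By edgeR 0 of 5 passed, against 0.0284% of all genes (4 genes, and 1 to 288 when 1 library was left out, the most without CONS VEH 1). The test was sensitive to the tool: DESeq2 called 215 genes in all and both Fads1 (-0.95, adjusted p = 0.0442) and Elovl5 (-0.78, adjusted p = 0.00291), and edgeR without the filter on low counts called both as well (adjusted p = 0.0499 and 0.0341).

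Comparing the CORT groups directly, Fads1 was lower with constant than with pulsatile CORT by 0.95 on the log2 scale (SE 0.20, edgeR adjusted p = 0.0367) and Elovl5 by 0.66 (SE 0.13, edgeR adjusted p = 0.021), in both cases without overlap of the 3 libraries. Fads2 differed by -0.65 (SE 0.20, edgeR adjusted p = 0.165), also without overlap, and passed when no genes were filtered out for low counts (adjusted p = 0.0409). Fads3 (0.07, SE 0.33) and Elovl2 (0.11, SE 0.14) did not pass. The share of all genes called in this comparison was 0.887% (125 genes, and 22 to 155 when 1 library was left out, the fewest without PULS CORT 2). The Fads1 call was lost on leaving out any of CONS CORT 1, CONS CORT 2, CONS VEH 3, PULS CORT 2 or PULS CORT 3 (edgeR adjusted p 0.0511 to 0.197), and the Elovl5 call without CONS CORT 1, PULS CORT 2 or PULS CORT 3 (0.0683 to 0.132). Between the vehicle groups 0 of 5 members passed, none of them had an unadjusted p below 0.05 (edgeR adjusted p 0.78 to 0.99), and 0% of all genes were called by edgeR, of which 1286 had an unadjusted p below 0.05 and DESeq2 called 22 (edgeR called 0 to 23 when 1 library was left out, the most without CONS VEH 1).

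Across the 12 RNA libraries the called members moved together, with a Pearson r of log2 CPM of 0.95 between Fads1 and Elovl5, 0.933 between Fads1 and Fads2 and 0.86 between Fads2 and Elovl5. These points share the contrast of constant CORT with the other groups. Elovl2 did not follow, with r of -0.075 to 0.098 to these 3 genes. Among the 7302 genes compared with it that had a mean of at least 10 CPM, those most like Fads1 were Elovl5, the mitochondrial carrier Slc25a23 (0.944) and the citrate carrier Slc25a1 (0.942), and those most like Elovl5 were Fads1, Slc25a23 (0.944) and Akr1c13 (0.944). Fads2 was most like Ndst1 (0.963), Kank2 (0.959) and AABR07068203.1 (0.953). Elovl2 was most like Hsd17b2 (0.888), Nceh1 (0.877) and Nfatc1 (0.85), and Fads3, at its low depth, like Tmcc3 (0.879), Tnrc18 (0.859) and Nae1 (0.85). In pSer2 Pol2, over 10 libraries and 4066 regions, Fads1 was most like Fdps (0.975), an enzyme of sterol synthesis, and Papss2 (0.947). Fads2 was most like Cyp2c23 (0.944), Cxcl12 (0.935) and Oaf (0.925), and Elovl5 like AABR07067810.1 (0.93), Igf1 (0.885) and Birc2 (0.878). The pSer2 Pol2 values also chose the family, and their points share the contrast of VEH with the CORT groups. Shared regulation of these genes was not tested.

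GR binding was compared at the regions near members. All GR regions are merged peaks that the authors called in these same libraries. None of the 5 was marked as a peak in VEH or at NADIR_180, so each entered through a CORT group with a peak. Tests of such a group against VEH or NADIR_180 are therefore not independent of that choice, and their p-values describe the regions only. Of the 5 regions near members, 2 lay upstream of Elovl5, 2 lay downstream of the Fads1 start and 1 lay upstream of Fads2, while Fads3 and Elovl2 had none, their nearest regions being 81.6 kb and 684.8 kb away. For comparison, 16.5% of 26426 genes had a GR region in this window and 5.43% had 2 or more. Fads1 and Fads2 point away from each other with starts 81.6 kb apart, so the region 26.9 kb upstream of Fads2 lies in the stretch between them, 54694 b upstream of Fads1.

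**Figure D3:**
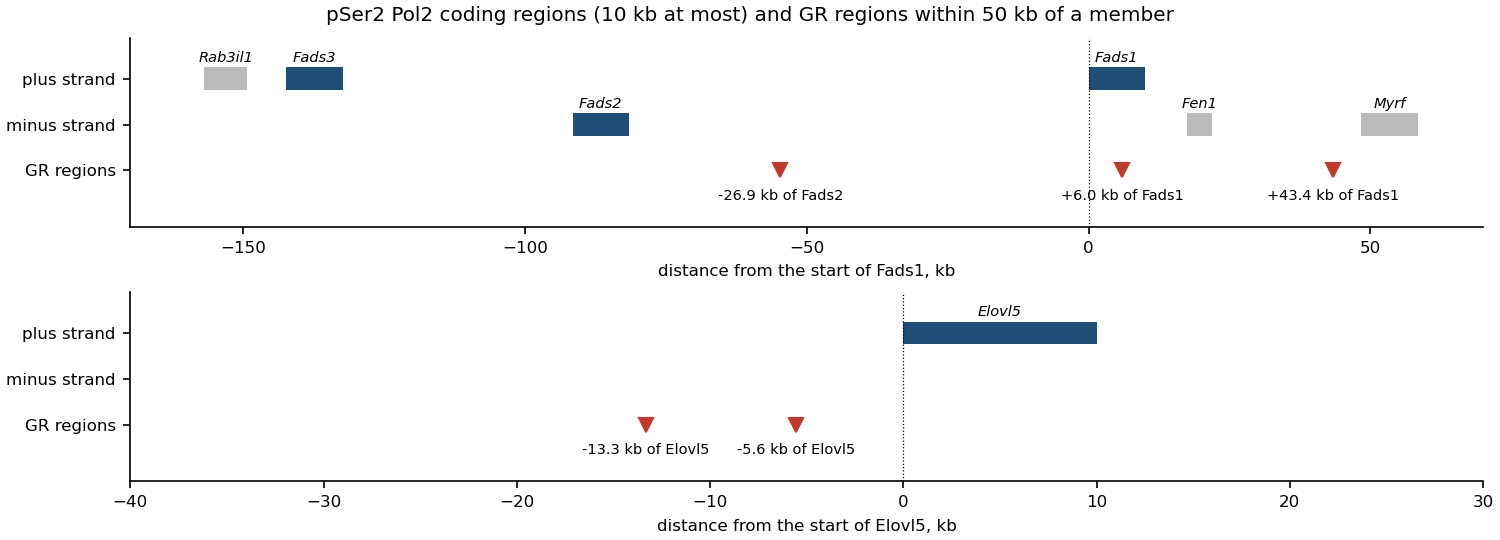
Position of the coding regions (at most 10 kb from the start) and of GR regions at the Fads locus and at Elovl5, to scale, as distance in kb from the start of Fads1 (top) or Elovl5 (bottom), with members in blue and neighbouring genes in grey. Triangles are centres of GR regions. Fads1 and Fads2 are on opposite strands with 1 GR region between their starts, and both Elovl5 regions lie upstream of that gene.

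The strongest binding was at Elovl5. At the region 13.3 kb upstream (rn6 chr8:85246344-85246969, intergenic) the deposited log2 GR tags were -0.61 and -0.80 in VEH, 5.14 and 5.01 at PEAK_140, 3.44 and -0.37 at NADIR_180, 5.17 and 4.98 at CONS_140, and 4.31 and 4.20 at CONS_180. All libraries at the peak and during constant CORT were therefore far above VEH, and the nadir libraries were split, 1 at the vehicle level and 1 in between. The log2 difference from VEH was 5.78 at PEAK_140 (SE 1.04, limma adjusted p = 0.00106), 5.78 at CONS_140 (adjusted p = 0.00136) and 4.95 at CONS_180 (adjusted p = 0.00309). At NADIR_180 it was 2.24 (limma adjusted p = 0.337), a value that passed only when the second nadir library was left out. The fall from PEAK_140 to NADIR_180 was 3.54 (limma adjusted p = 0.0154), which was lost without either PEAK_140 library (0.0593 and 0.0744).

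The second Elovl5 region, 5.6 kb upstream (rn6 chr8:85254092-85254745), had log2 tags of -0.46 and 2.05 in VEH, 5.42 and 5.18 at PEAK_140, 2.68 and 2.62 at NADIR_180, 4.83 and 4.38 at CONS_140, and 5.60 and 3.53 at CONS_180. The nadir libraries were close to the higher VEH library and below all other CORT libraries. Differences from VEH were 4.50 at PEAK_140 (SE 0.91, limma adjusted p = 0.00188), 3.81 at CONS_140 (adjusted p = 0.00558), 3.77 at CONS_180 (adjusted p = 0.00608) and 1.85 at NADIR_180 (adjusted p = 0.363). PEAK_140 exceeded NADIR_180 by 2.65 (limma adjusted p = 0.028), a call lost without any 1 of the 4 libraries compared (0.0707 to 0.116), and the CONS_180 call was lost without the first CONS_180 library (0.0593). The authors' peak caller marked both Elovl5 regions as peaks at PEAK_140, CONS_140 and CONS_180 and not at NADIR_180 or in VEH.

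Within Fads1, a region in intron 5, 6.0 kb from the start (rn6 chr1:226239840-226240235), was weaker. Its log2 tags were -0.66 and -0.76 in VEH, 2.13 and 2.62 at PEAK_140, -0.62 and 1.42 at NADIR_180, 2.55 and 0.48 at CONS_140, and 2.83 and 1.79 at CONS_180. It rose by 3.08 at PEAK_140 (SE 0.96, limma adjusted p = 0.0159) and by 3.01 at CONS_180 (adjusted p = 0.0216), while CONS_140 (2.22, adjusted p = 0.0695) and NADIR_180 (1.10, adjusted p = 0.604) did not pass. Both calls rested on few libraries. The first was lost without either VEH library or without PEAK_140 2 (limma adjusted p 0.0576 to 0.0691), and the second without either VEH library or without CONS_180 1 (0.0737 to 0.115). It was marked as a peak at PEAK_140 only.

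The region between the divergent desaturases, 26.9 kb upstream of Fads2 (rn6 chr1:226179183-226179578, intergenic), also carried a peak mark at PEAK_140 only. It had log2 tags of 1.74 and 0.55 in VEH, 2.93 and 3.18 at PEAK_140, 1.81 and -0.38 at NADIR_180, 2.64 and 1.61 at CONS_140, and 0.35 and 1.94 at CONS_180. Only at PEAK_140 were both libraries above all VEH and nadir libraries, and no difference from VEH passed in the fit of all 10 libraries, with 1.91 at PEAK_140 (SE 0.95, limma adjusted p = 0.0896), -0.43 at NADIR_180 (0.941), 0.98 at CONS_140 (0.375) and -0.00078 at CONS_180 (adjusted p = 1). Fitted on the PEAK_140 and VEH libraries alone, the first of these passed (limma adjusted p = 0.0344). PEAK_140 exceeded NADIR_180 by 2.34 (limma adjusted p = 0.0523), which passed without a trend of variance (0.0494) and when the first NADIR_180 library was left out.

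The last region lay 43.4 kb downstream of the Fads1 start and within intron 3 of Myrf, a membrane-bound transcription factor (rn6 chr1:226277196-226277821). It had GR tags without hormone too, although no peak was marked in VEH, at 2.83 and 3.69 in VEH, 2.89 and 3.79 at PEAK_140, 1.59 and 2.62 at NADIR_180, 3.74 and 2.86 at CONS_140, and 3.65 and 4.27 at CONS_180. The VEH range was overlapped by PEAK_140, CONS_140 and CONS_180, and NADIR_180 held the lowest values. Differences from VEH were 0.08 at PEAK_140 (SE 0.67, limma adjusted p = 0.909), -1.15 at NADIR_180 (0.421), 0.04 at CONS_140 (0.953) and 0.70 at CONS_180 (0.365). CONS_180 exceeded NADIR_180 by 1.86 (limma adjusted p = 0.0456), which held without 1 of the 10 libraries and was lost without any of the other 9 (0.053 to 0.186). It was marked as a peak at CONS_180 only. This region is the farthest inside the 50 kb window. The nearest region outside it, 81.6 kb from Fads3, had log2 tags of -0.98 and 0.20 in VEH and 3.01 and 3.62 at PEAK_140.

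**Figure D4:**
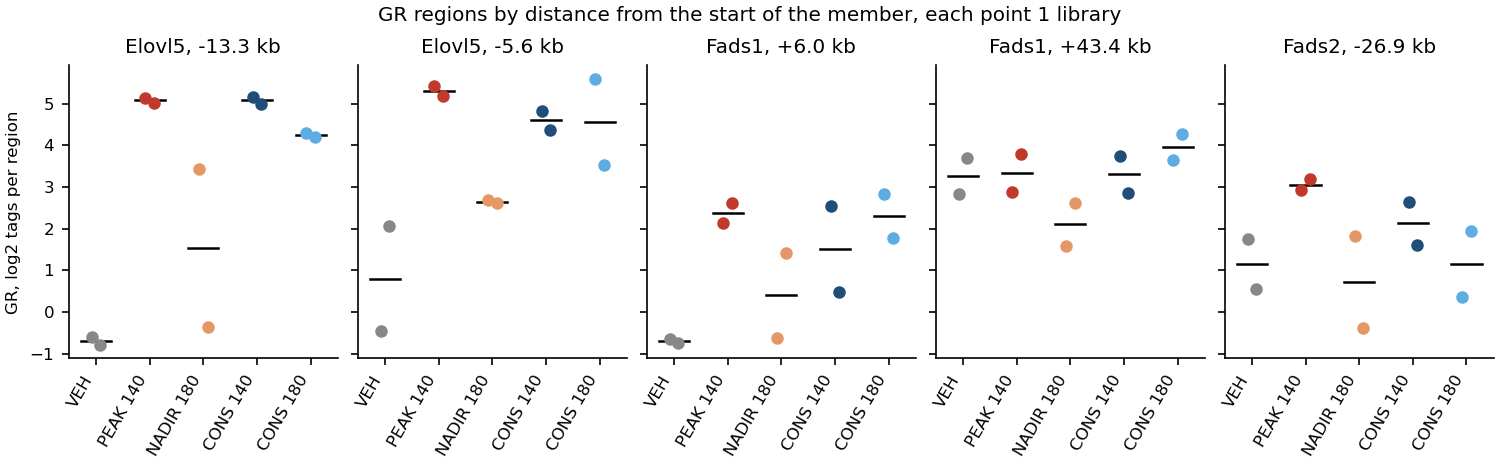
GR at the 5 regions near members, in log2 tags per region, by ChIP group. Points are single libraries and lines are group means (n = 2). Both Elovl5 regions were above 4.9 at PEAK_140 in every library, the Fads1 intron and the Fads2 region reached 2.13 to 3.18, and the region at +43.4 kb of Fads1 was at 2.83 and 3.69 already in VEH.

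The count of regions called near members was in no comparison above the share among all GR regions. At PEAK_140 3 of 5 regions were called raised, where 78.6% of all regions were. At NADIR_180 it was 0 of 5 with limma, where none had an unadjusted p below 0.05 and 7.44% of all regions were raised. At CONS_140 it was 2 of 5 (64.7% of all) and at CONS_180 3 of 5 (67.9%). For PEAK_140 over NADIR_180 it was 2 of 5 (68.8%) and for CONS_180 over NADIR_180 1 of 5 (49.6%). Between CONS_140 and CONS_180 it was 0 of 5 (0%), with no member at an unadjusted p below 0.05 and 194 of all regions below it. The median log2 difference from VEH over all regions was 4.17 for PEAK_140, 0.84 for NADIR_180, 3.38 for CONS_140 and 3.46 for CONS_180, and the medians near members were 3.08, 1.10, 2.22 and 3.01. Measured against that general rise, after median centring of the libraries, the Elovl5 region at -13.3 kb stood 1.16 above VEH at PEAK_140, that at -5.6 kb turned to -0.11, the Fads1 intron to -1.54, the Fads2 region to -2.71 and the Myrf intron to -4.53, of which only the last passed (limma adjusted p = 0.00537). A test of whether the change from 140 min to 180 min differed between pulsatile and constant CORT gave 1.35 to 2.77 on the log2 scale, with limma adjusted p of 0.116 to 0.401.

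The labels do not match ChIP with RNA libraries, and no relation between GR and RNA was tested over these few genes.

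The pathway around the members was described with 4 lists, chosen with earlier results of these data known. Together they held 52 genes, of which 44 were tested in RNA. Constant CORT raised 4 and lowered 8 of these 44 with a median log2 change of -0.28, where 9.2% of all genes were called. Pulsatile CORT raised 2 and lowered 0 with a median of 0.04, where 4.23% of all genes were called. Of 17 enzymes of desaturation, elongation and acyl-CoA formation, 2 rose and 3 fell with constant CORT. Scd, the delta-9 desaturase of monounsaturated fats, was at 202.3, 352 and 1286 CPM in constant vehicle and at 19.5, 21.25 and 91.35 CPM in constant CORT. The groups did not overlap in spite of a wide spread within each, and the log2 change was -3.80 (SE 0.79, edgeR adjusted p = 0.00394). In pulsatile CORT Scd was at 136.9, 191.1 and 762.9 CPM against 284.4, 102.9 and 229.4 CPM (log2 change 0.82, SE 0.70, edgeR adjusted p = 0.573).

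The acyl-CoA synthetases, which activate fatty acids, went both ways under constant CORT. Acsl1, the main form in liver, fell by 0.84 (edgeR adjusted p = 0.000838) and Acsl3 by 1.03 (adjusted p = 0.000435) on the log2 scale. Acsl4, which prefers arachidonic acid, rose by 1.25 (adjusted p = 0.000251), and with pulsatile CORT by 0.76 (adjusted p = 0.025, lost without PULS CORT 2, PULS VEH 1 or PULS VEH 3 at 0.0794 to 0.124). Hsd17b12, a reductase of the elongation cycle, rose in both patterns, by 1.23 with pulsatile (edgeR adjusted p = 0.00873, 0.0529 without PULS CORT 2) and 0.96 with constant CORT (0.0172, lost without CONS CORT 2, CONS VEH 1 or CONS VEH 3 at 0.0609 to 0.106). Other enzymes of that cycle, among them Tecr and Hacd1 to Hacd4, did not pass in either pattern.

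Of 10 genes that use polyunsaturated acyl chains, 1 passed with constant CORT, near the share of 9.2% among all genes. This was Lpcat3, the enzyme that places such chains in phospholipids, at -0.68 (edgeR adjusted p = 0.00544). It slipped below 1.5-fold when CONS CORT 3 was left out.

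Among 10 regulators, 2 rose and 3 fell with constant CORT, where 9.2% of all genes were called. With pulsatile CORT 0 passed, where 4.23% of all genes were called. Srebf1 was at 218.4, 211.8 and 251.9 CPM in constant vehicle and at 50.37, 110.9 and 72 CPM in constant CORT (log2 change -1.54, SE 0.28, edgeR adjusted p = 0.00148). In pulsatile CORT it was at 160.1, 212.2 and 280.7 CPM and in its vehicle at 219.7, 119.3 and 253.9 CPM (0.14, SE 0.27, adjusted p = 0.842). Ppara went the other way, from 146.6, 49.37 and 81.44 CPM in constant vehicle to 302.6, 282.2 and 206.9 CPM (1.5, SE 0.28, edgeR adjusted p = 0.00197). The RNA of 1 known activator of the desaturases fell with theirs while that of the other rose. The activity of SREBP-1 and PPARalpha was not measured, and their part in the fall was not tested. Srebf2 fell by 0.59 (adjusted p = 0.0208) and Insig2, which holds SREBP in the endoplasmic reticulum, by 1.11 (adjusted p = 0.00354), whereas its relative Insig1 rose by 1.35 (adjusted p = 0.0456). The Srebf2 call was lost without any of CONS CORT 1, CONS CORT 3, CONS VEH 1 or CONS VEH 2 (0.0612 to 0.0855), and the Insig1 call without any of 9 of the 12 libraries (0.0522 to 0.174) and with DESeq2 (0.113). Directly between the CORT groups, Srebf1 was lower by 1.48 (edgeR adjusted p = 0.0202, lost without CONS CORT 1, CONS CORT 3, PULS CORT 2 or PULS CORT 3) and Ppara higher by 1.25 (0.0482, lost without 8 of the 12 libraries) with constant CORT.

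In pSer2 Pol2, 40 of the 52 genes were tested with limma, each by its gene region. At PEAK_140 3 were lowered, at NADIR_180 1 was lowered, and 0 passed in the constant groups. Among all 16262 gene regions tested, 55 were raised and 93 lowered at PEAK_140, and 0 and 1 at NADIR_180. At CONS_140 these counts were 99 and 27, and at CONS_180 26 and 8. Over gene and transcript regions together the shares called were 0.989%, 0.00522%, 0.788% and 0.214% in that order. The 0 of 40 in the constant groups is near these shares. Insig2 fell by 3.04 at PEAK_140 (SE 0.31, limma adjusted p = 0.00128), from 9.93 and 9.59 in VEH to 6.69 and 6.75, and stood at 9.23 and 9.72 at the nadir. Scd fell by 3.08 (adjusted p = 0.023), and its difference from VEH at NADIR_180 was -3.10 (adjusted p = 0.412). At CONS_140 Scd stood at 5.0 and 2.8, and at CONS_180 at 6.5 and 6.3, above the 6.1 and 5.8 of VEH. Scd RNA at 180 min was called lowered with constant CORT and was not called with pulsatile CORT. No relation between the polymerase and the RNA of Scd was tested. At the peak Acsl1 fell by 2.02 (adjusted p = 0.00714), and Insig1 fell by 2.57 at NADIR_180 (adjusted p = 0.0221). Insig2 held without each of the 10 libraries but not with only the PEAK_140 and VEH libraries in the fit (limma adjusted p = 0.253), and the calls were lost without 8 of them for Scd (0.0992 to 0.318), 5 for Acsl1 (0.0534 to 0.0844) and 7 for Insig1 (0.0585 to 0.263).

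**Figure D5:**
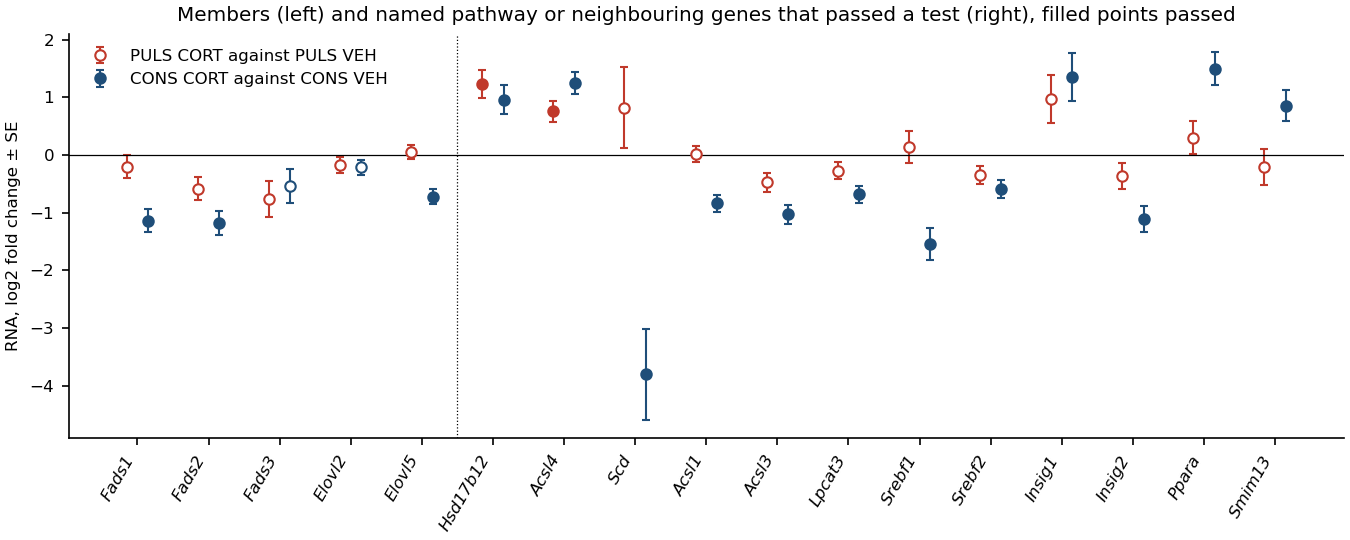
Log2 fold change of RNA with its SE (edgeR, n = 3 per group) for the members, left of the dotted line, and for named genes of the pathway and neighbour lists that passed in at least 1 pattern. Red is pulsatile CORT and blue is constant CORT, each against its own vehicle, and filled points passed. Fads1, Fads2 and Elovl5 are filled in blue and open in red, as are Scd and Srebf1, whereas Hsd17b12 and Acsl4 are filled above 0 in both.

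The genes beside the members were tested in the same fit. Of 8 neighbours tested in RNA, 0 passed with pulsatile CORT by edgeR, where 1 (Nedd9) had an unadjusted p below 0.05, and 1 passed with constant CORT. The shares of all genes called were 4.23% with pulsatile and 9.2% with constant CORT. Myrf, in which the GR region with tags already in VEH lies, was at 18.58 to 19.34 CPM in constant CORT and 16.98 to 18.64 CPM in its vehicle (log2 change 0.10, SE 0.17, edgeR adjusted p = 0.787). Fen1, which lies next to Fads1, had at most 1.155 CPM in any library. The 1 that passed was Smim13, beside Elovl2, which rose by 0.86 with constant CORT (SE 0.27, edgeR adjusted p = 0.0458), a call lost without any of 8 of the 12 libraries (0.0512 to 0.173) and with DESeq2 (0.0947).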

How the data were processed

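Livers were profiled by GR ChIP-Seq, pSer2 Pol2 ChIP-Seq and RNA-Seq. The members and all gene lists were chosen with earlier results of these data known. The authors deposited RNA as raw counts of exonic reads per Ensembl gene, and both ChIP assays as log2 tag counts per region together with peak calls per group. Per the submitters' processing notes, Trimmomatic 0.36, STAR, featureCounts 1.6.2, SAMtools, HOMER 4.9.1 and DESeq2 were used with builds rn6 and Rnor_6.0, and the authors state that peaks were called over input DNA and that regions of the 5 groups were merged. The ChIP log2 values are not whole and fall below 0, as a regularised log does, so they were not treated as counts. Columns with the authors' own fold changes and p-values, and separate peak lists, were not used here. The 10 input libraries were not fitted here. Besides calling peaks over input, the authors state that they subtracted raw input tags from the GR and pSer2 Pol2 regions. Whether the deposited log2 values include that subtraction was not checked. Gene names came from the pSer2 Pol2 table, which named 22747 of 22929 RNA genes.

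RNA counts were fitted in edgeR 4.0.16 (R 4.3.3) with TMM scaling and the quasi-likelihood test over all 12 libraries, for 14092 genes with more than 10 reads in total. ChIP log2 values were fitted in limma 3.58.1 with a trend, over all 10 libraries of an assay (3981 GR regions and 38315 pSer2 Pol2 regions). A feature passed with a Benjamini-Hochberg adjusted p below 0.05 over all features of that test and a change above 1.5-fold. DESeq2 1.42.0, other scalings and filters, a replicate block and leaving out each library were the alternatives. Scripts were tested on simulated data. The labels do not tie RNA libraries to single animals, so p-values measure the spread between these libraries.

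Named were all members, all GR regions within 50 kb of a member, list genes that passed in any comparison, and the 3 genes most correlated with each member. Some of the genes this names are not reported here. In pSer2 Pol2, same-numbered CORT libraries deviated together in all 12 pairs (r 0.15 to 0.55), and the VEH libraries carry no number. The numbers were taken to pair the CORT libraries only in an alternative fit with a replicate block. The pSer2 Pol2 differences, SE and adjusted p given in the Results come from fits that did not use this pairing. Promoter letters are from RefSeq (GRCr8) and no coordinates were converted between builds.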

Additional observations from a re-analysis of the deposited data

How the results depend on the processing

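The calls of Fads1, Fads2 and Elovl5 with constant CORT held under every alternative run in RNA. DESeq2 called 2 members in the interaction, and edgeR without a filter called 2 there and 1 with pulsatile CORT. Without a filter or with DESeq2 the interaction held 204 or 215 genes in all, constant against pulsatile CORT 273 or 209, and the vehicle comparison 30 or 22, and with the replicate block the interaction held 9. Replicate numbers did not pair the RNA libraries (r -0.049 to 0.081 over 18 pairs) or the GR libraries (-0.027 to 0.072 over 12 pairs). With a replicate block Fads1 in the vehicle comparison turned to -0.0219, and with the block among CORT libraries 2 GR regions were called between CONS_180 and NADIR_180. Those were both Elovl5 regions (adjusted p = 0.0462 and 0.0376), while the Myrf intron lost its call (0.0653), as did Smim13 in RNA (0.0607), and the block changed no other call. Subtracting the median or equalising quantiles removes a rise common to all GR regions, so the regions near members were then compared with that rise. With median centring the 3 raised calls at PEAK_140 were lost and 1 region, the Myrf intron, was called lowered. The raised calls at CONS_140 and CONS_180 were lost too, and quantile normalization lost those of all these groups. With either scaling 0 were called between PEAK_140 and NADIR_180 or CONS_180 and NADIR_180. Elovl5 at -13.3 kb stayed above VEH at PEAK_140, CONS_140 and CONS_180 without passing (limma adjusted p 0.0952 to 0.463). It did so by 1.16, 1.67 and 0.891 with median centring and by 1.18, 1.65 and 0.918 with quantile normalization. Over all GR regions median centring called 534 at PEAK_140 (103 raised), 0 at NADIR_180, 477 at CONS_140 (126 raised) and 327 at CONS_180 (57 raised), and quantile normalization called 1039, 131, 771 and 819 (574, 64, 405 and 417 raised), against 3204, 310, 2590 and 2714 as deposited. Median centring turned the difference of PEAK_140 against VEH to -0.114 for Elovl5 at -5.6 kb, -1.54 for the Fads1 intron, -4.53 for the Myrf intron and -2.71 for the Fads2 region. For NADIR_180 against VEH it gave -0.0752 for the Fads1 intron. For CONS_140 against VEH it gave -0.304 for Elovl5 at -5.6 kb, -1.89 for the Fads1 intron, -4.07 for the Myrf intron and -3.13 for the Fads2 region. For CONS_180 against VEH it gave -0.289 for Elovl5 at -5.6 kb, -1.05 for the Fads1 intron, -3.36 for the Myrf intron and, from a value near 0, -4.06 for the Fads2 region. The Myrf intron and the Fads2 region passed as lowered at CONS_140 (adjusted p = 0.0179 and 0.0361) and CONS_180 (0.041 and 0.0169). For PEAK_140 against NADIR_180 it gave -0.788 for Elovl5 at -5.6 kb, -1.46 for the Fads1 intron, -2.2 for the Myrf intron and -1.1 for the Fads2 region. For CONS_180 against NADIR_180 it gave -0.166 for Elovl5 at -13.3 kb, -0.964 for Elovl5 at -5.6 kb, -0.973 for the Fads1 intron, -1.02 for the Myrf intron and -2.46 for the Fads2 region. For CONS_140 against CONS_180 it gave -0.0141 for Elovl5 at -5.6 kb. Quantile normalization turned the difference of PEAK_140 against VEH to -1.57 for the Fads1 intron, -3.88 for the Myrf intron and -2.49 for the Fads2 region. For CONS_140 against VEH it gave -0.0975 for Elovl5 at -5.6 kb, -1.33 for the Fads1 intron, -3.35 for the Myrf intron and -2.6 for the Fads2 region. For CONS_180 against VEH it gave -1.03 for the Fads1 intron, -2.6 for the Myrf intron and -3.44 for the Fads2 region. The Myrf intron and the Fads2 region passed as lowered at PEAK_140 (adjusted p = 0.00507 and 0.0112), CONS_140 (0.015 and 0.0143) and CONS_180 (0.0345 and 0.00496). For PEAK_140 against NADIR_180 it gave -0.307 for Elovl5 at -5.6 kb, -1.62 for the Fads1 intron, -1.81 for the Myrf intron and -1.09 for the Fads2 region. For CONS_180 against NADIR_180 it gave -0.191 for Elovl5 at -13.3 kb, -0.448 for Elovl5 at -5.6 kb, -1.07 for the Fads1 intron, -0.538 for the Myrf intron and -2.04 for the Fads2 region. For CONS_140 against CONS_180 it gave -0.108 for Elovl5 at -5.6 kb. CONS_180 against NADIR_180 held 0 called regions without a variance trend, with only the libraries compared or at an adjusted p below 0.01, and PEAK_140 against NADIR_180 then held 1 with only the libraries compared and 0 at 0.01. Of the pathway list in pSer2 Pol2, median centring called 2 genes at NADIR_180 and 2 at CONS_140, quantile normalization 1 at CONS_140 and 2 at CONS_180, no variance trend 1 at CONS_140, and only the libraries compared 0 at PEAK_140 and NADIR_180. All pSer2 Pol2 calls at PEAK_140 went from 379 to 783 with median centring, 844 with quantile normalization and 0 with only the libraries compared. On leaving out each library in turn, RNA calls in the pathway list with pulsatile CORT ranged from 0 (without PULS CORT 2) to 3, and members called between constant and pulsatile CORT from 0 to 2. GR regions called near members ranged from 0 to 1 at NADIR_180 (1 without NADIR_180 2), 1 to 3 at CONS_180 (1 without CONS_180 1), 0 to 2 between PEAK_140 and NADIR_180 and 0 to 1 between CONS_180 and NADIR_180. Pathway genes called in pSer2 Pol2 ranged from 1 to 3 at PEAK_140, 0 to 2 at NADIR_180 and 0 to 6 at CONS_140 (6 without CONS_140 2). Log2 differences that changed sign when 1 library was left out ranged from -0.405 to 0.114 for Fads1, PULS CORT against PULS VEH, from -0.0574 to 0.142 for Elovl5, PULS CORT against PULS VEH, from -0.187 to 0.403 for Fads3, CONS response against PULS response, from -0.154 to 0.0816 for Elovl2, CONS response against PULS response, from -0.0446 to 0.133 for Fads3, CONS CORT against PULS CORT, from -0.295 to 0.223 for Fads1, PULS VEH against CONS VEH, from -0.19 to 0.225 for Fads2, PULS VEH against CONS VEH, from -0.256 to 0.334 for Fads3, PULS VEH against CONS VEH, from -0.196 to 0.00225 for Elovl5, PULS VEH against CONS VEH, from -0.366 to 0.534 for the Myrf intron, PEAK_140 against VEH, from -1.52 to 0.667 for the Fads2 region, NADIR_180 against VEH, from -0.393 to 0.483 for the Myrf intron, CONS_140 against VEH, from -0.795 to 0.793 for the Fads2 region, CONS_180 against VEH, from -0.668 to 1.52 for the Fads2 region, CONS_180 against NADIR_180, from -0.999 to 1.07 for Elovl5 at -5.6 kb, CONS_140 against CONS_180, from -1.83 to 0.244 for the Fads1 intron, CONS_140 against CONS_180. When 1 library was left out, all genes called ranged from 336 (without PULS CORT 2) to 650 for pulsatile CORT and from 992 to 1324 for constant CORT, all GR regions called at NADIR_180 against VEH ranged from 225 to 758 (without NADIR_180 2), and all pSer2 Pol2 regions called at PEAK_140 against VEH from 19 (without VEH 2) to 197. ChIP groups of 2 libraries and the 13 to 41 reads of Fads3 limit these tests, and the cause of these changes was not tested.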
